A study of Mus musculus with 12 samples.

Results

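The complement system was followed here through 9 genes in cultured mouse 4T1 mammary carcinoma cells: *C1s1*, *C1ra*, *C1rl*, *C3*, *C4b*, *Cfb*, *Serping1*, *Cd55* and *Cd59a*. They were taken by symbol from a list of complement components and regulators, and all 9 were found among the 35521 genes with quantified transcripts. The list was chosen with earlier results of these data known. RNA was sequenced in 12 libraries. Tu-Gr1+CD11b+-primed 4T1 (4 libraries, called Tu-primed from here) had shared a Transwell with 0.4 µm pores for 48 hours with Gr1+ cells isolated magnetically from tumors of BALB/c mice bearing 4T1 tumors at day 21. Spl-Gr1+CD11b+-primed 4T1 (4 libraries, Spl-primed) had been kept in the same way with Gr1+ cells from the spleens of such mice. The labels name only Gr1+ for the isolation. Parental 4T1 (4 libraries) had no Gr1+ cells. The labels give no culture time or Transwell for it. Differences in culture handling therefore cannot be told apart from priming in comparisons with parental 4T1. All 12 libraries are of a single cell line, and nothing in the labels says whether the 4 libraries of a group came from separate cultures or from separate donor mice, so the p-values measure the spread between these libraries only.

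Complement is a set of plasma and surface proteins that marks targets for uptake or lysis. In the classical pathway the proteases C1r and C1s are activated on the recognition molecule C1q, and C1s cleaves C4 and C2. In the alternative pathway factor B provides the protease that cleaves C3, the component on which all routes converge. C1 inhibitor, encoded by *Serping1*, blocks C1r and C1s, while CD55 and CD59 protect the membranes of the body's own cells. Most plasma complement comes from the liver, but epithelial cells and many tumor cell lines also transcribe components.

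The libraries held 24467549 to 31517536 estimated reads on annotated genes. Of the epithelial markers, 5 of 6 (*Epcam*, *Krt8*, *Krt18*, *Krt19* and *Cdh1*) exceeded 1 CPM (counts scaled to a common library size) in each group, so the libraries held epithelial transcripts as labelled. *Krt8* and *Krt18* were called lower against parental 4T1 in both primed groups, *Cdh1* was lower in Tu-primed 4T1 and *Epcam* was higher in Spl-primed 4T1, and none of the 6 was called between the primed groups. Of 20 granulocyte and monocyte markers, 7 were at 0 in all Tu-primed libraries, *Mpo*, *Tyrobp* and *Adgre1* among them. The summed level of this list was 22.7 to 27.4 CPM in Tu-primed 4T1, 18.1 to 22.0 CPM in Spl-primed 4T1 and 18.5 to 22.5 CPM in parental 4T1. Only *S100a8*, *Cxcr2*, *Ltf* and *Cd14* exceeded 1 CPM on average, in parental 4T1 as in both primed groups, and only these 4 were tested. Of them, *S100a8* and *Ltf* were higher in Tu-primed 4T1 than in either other group, while *Cd14* and *Cxcr2* had no call in any comparison. The part of this list in the results below was not tested.

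The classical pathway protease genes *C1ra* and *C1s1* and the related gene *C1rl* lie side by side on mouse chromosome 6 (GRCm38). *C1rl*, a C1r-like protease gene, spans 124493113 to 124510643 on the plus strand. *C1ra*, the gene of C1r, spans 124512405 to 124523443 on the plus strand and begins 1761 bases after *C1rl*. *C1s1*, the gene of C1s, spans 124530345 to 124542359 on the minus strand, 6901 bases farther on. The promoter windows of these 3 neighbours, and of *C3* as a member of another locus, are shown because the 3 neighbours all rose in Tu-primed 4T1 against both other groups, while *C3* did not against parental 4T1. They run from 250 bases before to 50 bases after a RefSeq start, in RefSeq on GRCm38.p6, at chr6:124492863-124493162 (plus strand), chr6:124512371-124512670 (plus strand), chr6:124542310-124542609 (minus strand) and chr17:57228087-57228386 (minus strand). Capitals mark matches to the letters searched.
C1rl: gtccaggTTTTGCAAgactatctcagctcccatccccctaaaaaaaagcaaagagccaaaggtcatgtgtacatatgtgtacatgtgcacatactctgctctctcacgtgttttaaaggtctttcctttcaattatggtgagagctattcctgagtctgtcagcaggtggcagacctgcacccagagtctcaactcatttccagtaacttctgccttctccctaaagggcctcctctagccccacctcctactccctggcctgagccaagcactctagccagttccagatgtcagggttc
C1ra: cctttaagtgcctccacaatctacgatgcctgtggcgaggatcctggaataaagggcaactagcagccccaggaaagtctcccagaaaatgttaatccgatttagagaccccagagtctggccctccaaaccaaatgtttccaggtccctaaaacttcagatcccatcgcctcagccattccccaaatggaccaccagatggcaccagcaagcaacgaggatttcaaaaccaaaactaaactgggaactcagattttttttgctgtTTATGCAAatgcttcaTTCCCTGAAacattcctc
C1s1: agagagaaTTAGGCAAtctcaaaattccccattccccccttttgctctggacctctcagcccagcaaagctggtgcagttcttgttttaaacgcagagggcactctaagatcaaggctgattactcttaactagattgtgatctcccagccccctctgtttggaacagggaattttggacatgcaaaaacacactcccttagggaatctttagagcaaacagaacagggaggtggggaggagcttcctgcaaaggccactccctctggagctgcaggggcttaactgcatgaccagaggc
C3: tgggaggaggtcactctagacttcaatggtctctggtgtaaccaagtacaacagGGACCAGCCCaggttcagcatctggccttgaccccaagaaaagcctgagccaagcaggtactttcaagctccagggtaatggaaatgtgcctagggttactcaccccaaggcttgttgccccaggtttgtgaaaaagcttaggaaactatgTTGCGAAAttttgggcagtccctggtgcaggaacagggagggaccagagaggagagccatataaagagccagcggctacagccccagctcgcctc

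The letters searched on both strands were TTCNNNGAA for STAT factors, GAAANNGAAA for interferon regulatory factors, TTGCNNAA for C/EBP factors and GGGNNNNTCC for NF-kappaB. These forms were present in 8.30%, 3.44%, 10.8% and 19.2% of all 32851 promoter windows, respectively. The *C1ra* window held a STAT form (TTCCCTGAA) 32 bases after the start and a C/EBP form (TTATGCAA) 16 bases after it. The RefSeq start of *C1ra* lies inside the GENCODE gene, so these bases are transcribed in the GENCODE model. *C1s1* and *C1rl* each held a C/EBP form (TTAGGCAA and TTTTGCAA) at −242 and −243, respectively, and *C1s1* has a further RefSeq start whose window held none of the 4 forms. The *C3* window held a C/EBP form (TTGCGAAA) at position −45 from the start and an NF-kappaB form (GGACCAGCCC) at −196. Windows were found for 6 of the 9 members. None was present for *C4b*, *Cfb* or *Serping1* among the RefSeq windows searched. Of the other 2, *Cd59a* held an interferon response form (GAAAGGGAAA) at −187, and *Cd55* held none of the 4. A match is a description of letters, and binding was not measured.

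The classical pathway protease genes *C1s1* and *C1ra*, and the related *C1rl*, rose in Tu-primed 4T1 against both other groups. *C1s1* stood at 7.77, 8.66, 9.02 and 5.87 CPM in the 4 Tu-primed libraries, at 2.23, 2.14, 2.29 and 2.92 CPM in the Spl-primed libraries and at 0.843, 1.15, 0.713 and 0.520 CPM in parental 4T1. The 3 groups formed 3 separate ranges. In the edgeR quasi-likelihood fit, with p-values adjusted by Benjamini and Hochberg's method, *C1s1* was 3.26-fold higher in Tu-primed than in Spl-primed 4T1 (log2 fold change 1.71, SE 0.18, adjusted p = 5.77e-05). Against parental 4T1 it was 9.65-fold higher after priming by tumor Gr1+ cells (log2 fold change 3.27, SE 0.21, adjusted p = 1.08e-07) and 2.96-fold higher after priming by spleen Gr1+ cells (1.56, SE 0.23, adjusted p = 0.000109). With offsets for effective transcript length, the latter difference was 1.07 with an edgeR adjusted p of 0.0849.

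*C1ra*, whose product activates C1s, measured 6.49, 8.08, 6.57 and 4.69 CPM in Tu-primed 4T1. In the Spl-primed libraries it was 1.60, 2.36, 1.78 and 2.44 CPM and in parental 4T1 1.52, 1.94, 1.47 and 1.04 CPM. Every Tu-primed library lay above the other 8, whereas the Spl-primed and parental ranges overlapped. The level was 3.16-fold that of Spl-primed 4T1 (log2 fold change 1.66, SE 0.20, edgeR adjusted p = 0.000154) and 4.32-fold that of parental 4T1 (2.11, SE 0.21, edgeR adjusted p = 2.93e-06). Between Spl-primed and parental 4T1 the log2 difference of *C1ra* was 0.45, with a 95% interval of −0.03 to 0.94 and an edgeR adjusted p of 0.113.

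*C1rl* encodes a protease related to C1r. It measured 1.99, 2.06, 1.99 and 1.60 CPM in Tu-primed 4T1. It stood at 0.753, 0.944, 0.508 and 0.835 CPM after priming by spleen Gr1+ cells and at 0.438, 0.659, 0.713 and 0.360 CPM in parental 4T1. As for *C1ra*, the Tu-primed libraries lay above all the others, and the remaining groups overlapped. *C1rl* was 2.50-fold higher than in Spl-primed 4T1 (log2 fold change 1.32, SE 0.24, edgeR adjusted p = 0.00316) and 3.52-fold higher than in parental 4T1 (1.82, SE 0.25, edgeR adjusted p = 3.74e-05). The study listed *C1s1*, *C1ra* and *C1rl* among genes shared with SCA1+ 4T1 cells. That list was drawn in part from these libraries and is not independent evidence of their direction.

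Reads of the C1 protease genes could be divided between near copies. Of the 31-base words in the *C1ra* transcript, 56.9% also occur in *C1rb*, and 36.5% of those of *C1s1* occur in *C1s2*. *C1rb* held 6 to 17 estimated reads per Tu-primed library, 0 to 5 per Spl-primed library and 1 to 8 per parental library. *C1s2* held 10 to 16, 4 to 9 and 0 to 4. With each pair summed, the log2 fold changes between Tu-primed and Spl-primed 4T1 were 1.66 for *C1ra* with *C1rb* and 1.66 for *C1s1* with *C1s2*, and no call of these members changed in any of the 3 comparisons.

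**Figure D1:**
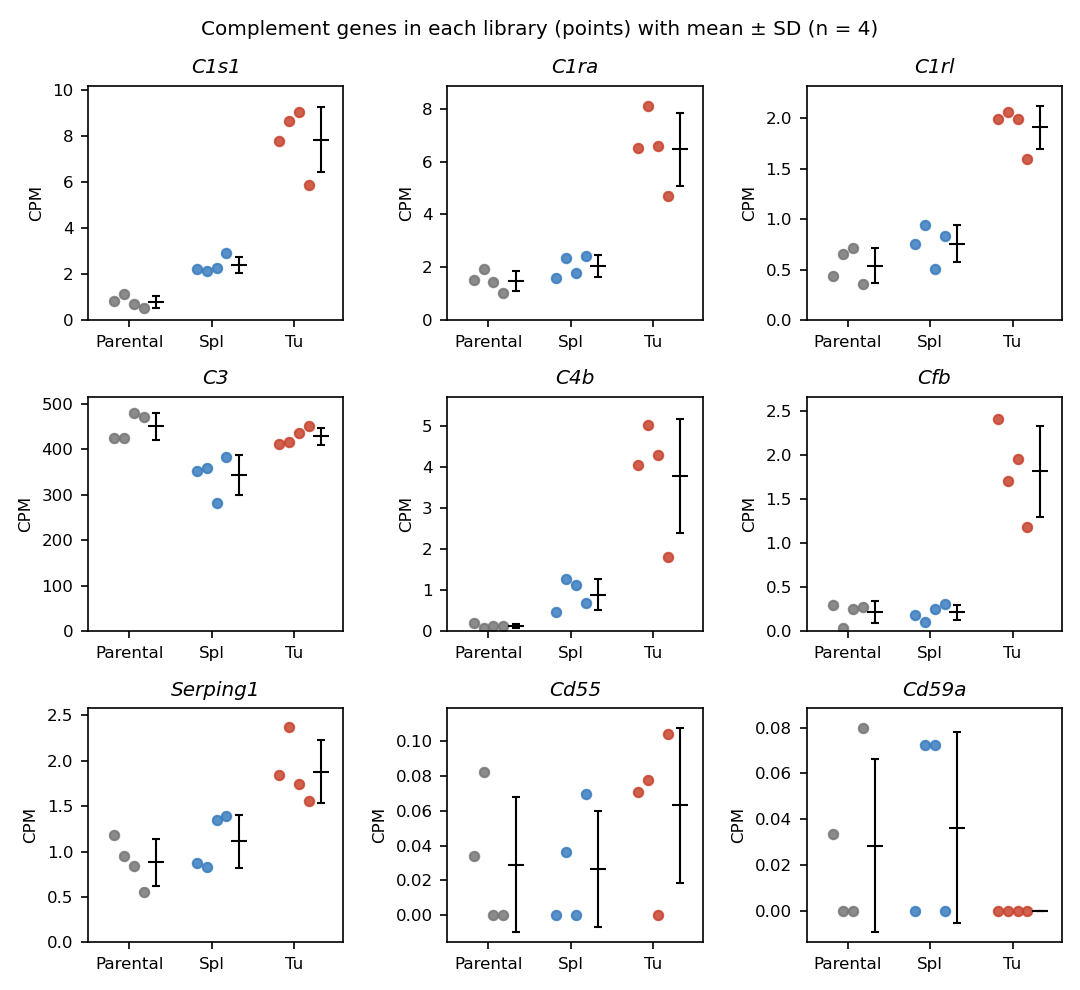
CPM (y axis, 0 included) of the 9 complement genes in parental, Spl-primed (Spl) and Tu-primed (Tu) 4T1; points are libraries in order of replicate number and the black marks are mean ± SD (n = 4). *C1s1* forms 3 separate ranges, *C1ra*, *C1rl* and *Cfb* have their Tu libraries above all others, *C3* is lowest in the Spl group, and *Cd55* and *Cd59a* rest on 0 to 3 reads per library.

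*C4b* encodes complement C4, the substrate of C1s. It was 4.05, 5.01, 4.30 and 1.80 CPM in Tu-primed 4T1, and 0.471, 1.27, 1.13 and 0.696 CPM in Spl-primed 4T1. In the parental libraries only 6, 2, 3 and 3 estimated reads were assigned to it, or 0.202, 0.0824, 0.126 and 0.120 CPM. The 3 groups did not overlap, although the fourth Tu-primed library was far nearer to the spleen group than the other 3. *C4b* was 4.27-fold higher in Tu-primed than in Spl-primed 4T1 (log2 fold change 2.09, SE 0.33, edgeR adjusted p = 0.00124). The differences from parental 4T1 were 4.76 (SE 0.45, edgeR adjusted p = 1.73e-06) and 2.66 (SE 0.50, edgeR adjusted p = 0.000736) on the log2 scale, and both rest on a parental level of a few reads per library. With offsets for effective transcript length they were 5.46 and 3.82, while the difference between the primed groups shrank to 1.64 and was still called.

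*C4b* lies on chromosome 17 at 34728380 to 34743882 on the minus strand. Of its 31-base words, 48.8% also occur in *C4a*, which was not among the quantified transcripts, so reads of *C4a* could be counted as *C4b*. Transcripts of *C4b* not annotated as protein coding took 0 to 12.9% of its reads in Tu-primed 4T1 and 0 to 22.3% in Spl-primed 4T1. With protein-coding transcripts alone, *C4b* kept its calls in all 3 comparisons.

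*Cfb*, the gene of factor B of the alternative pathway, rose in the Tu-primed group against both other groups. Its levels there were 2.41, 1.71, 1.96 and 1.18 CPM. They were 0.188, 0.109, 0.254 and 0.313 CPM in Spl-primed 4T1 and 0.303, 0.0412, 0.252 and 0.280 CPM in parental 4T1. The latter 2 groups covered the same range, on 1 to 9 estimated reads per library, against 34 to 68 in the Tu-primed libraries. The log2 fold change of *Cfb* was 3.04 against Spl-primed 4T1 (SE 0.38, edgeR adjusted p = 0.000179) and 3.00 against parental 4T1 (SE 0.39, edgeR adjusted p = 2.06e-05). Between Spl-primed and parental 4T1 it was −0.04, with a 95% interval of −1.09 to 1.01. *Cfb* passed the filter on low counts through the Tu-primed libraries alone. With offsets for effective transcript length, which vary between libraries with the isoforms the quantification assigned, the difference from Spl-primed 4T1 was 2.02 and its edgeR adjusted p 0.052.

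*Cfb* lies at 34856374 to 34862518 on the minus strand of chromosome 17, 112491 bases from *C4b*. *C2*, the classical pathway relative of factor B and its neighbour, had 0 to 6 estimated reads per library and was not tested. *Gm20547*, a gene model that reads through both, contains 81.5% of the 31-base words of the *Cfb* transcript and was assigned 0 reads in all 12 libraries. As the quantification assigned the reads, the Tu-primed libraries differed from the others in *Cfb*, while *C2* stayed at a few reads in every group. Reads made only of shared words cannot by themselves tell *Cfb* from *Gm20547*.

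*C3* encodes the central component of the cascade, and its differences were the smallest among the tested members in the comparisons of Tu-primed 4T1. It measured 412, 415, 435 and 450 CPM in Tu-primed 4T1, 352, 359, 281 and 384 CPM in Spl-primed 4T1 and 423, 425, 480 and 471 CPM in parental 4T1. The Spl-primed libraries were the lowest, and the Tu-primed and parental ranges overlapped. *C3* fell by 0.39 on the log2 scale in Spl-primed against parental 4T1 (SE 0.08, edgeR adjusted p = 0.00168). It was 1.24-fold higher in Tu-primed than in Spl-primed 4T1 (log2 fold change 0.32, SE 0.08, edgeR adjusted p = 0.0305), a call made in 16 of 23 settings and lost when any of the 4 Tu-primed libraries or the first or second Spl-primed library was left out (adjusted p 0.0557 to 0.0908). Between Tu-primed and parental 4T1 the log2 difference was −0.07, with a 95% interval of −0.25 to 0.10 and an edgeR adjusted p of 0.472.

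Of the regulators among the members, *Serping1*, the gene of C1 inhibitor, was called higher against parental 4T1 alone. The Tu-primed libraries had 1.85, 2.37, 1.75 and 1.56 CPM, the Spl-primed libraries 0.879, 0.835, 1.34 and 1.39 CPM and the parental libraries 1.18, 0.947, 0.839 and 0.559 CPM. All 4 Tu-primed libraries lay above the other 8. The difference from parental 4T1 was 2.11-fold (log2 fold change 1.08, SE 0.25, edgeR adjusted p = 0.00239). That from Spl-primed 4T1 was 0.76 on the log2 scale (95% interval 0.23 to 1.28, before adjustment) with an edgeR adjusted p of 0.0786, and DESeq2 gave 0.77 with an adjusted p of 0.0388. The neighbour *Ube2l6*, within 50000 bases of *Serping1*, was higher in Tu-primed than in Spl-primed 4T1 by 1.02 on the log2 scale (edgeR adjusted p = 0.000267). It was the only one of 14 tested neighbours of members, themselves left out, that was called higher in this comparison, where 4.66% of all tested genes were called higher.

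*Cd55* and *Cd59a*, the genes of the surface inhibitors CD55 and CD59, did not pass the filter on low counts. *Cd55* had 2, 2, 0 and 3 estimated reads in Tu-primed 4T1, 0, 1, 0 and 2 in Spl-primed 4T1 and 1, 2, 0 and 0 in parental 4T1. *Cd59a* had 0 reads in all 4 Tu-primed libraries, 0, 2, 2 and 0 in the spleen group and 1, 0, 0 and 2 in parental 4T1. A count of 0 allows up to 3 reads, or at most 0.126 CPM in these libraries, so no difference in either gene was detectable at this depth. The inhibitors that these cells did transcribe were other genes. *Cd59b*, the second mouse CD59 gene, stood at 54.9 to 58.5 CPM in Tu-primed 4T1, 64.4 to 80.4 CPM in the spleen group and 70.9 to 90.4 CPM in parental 4T1, and fell by 0.36 (edgeR adjusted p = 0.0128) and 0.56 (edgeR adjusted p = 4.49e-05) on the log2 scale in Tu-primed 4T1 against these 2 groups. It was also called lower in Spl-primed than in parental 4T1, by 0.20 (edgeR adjusted p = 0.0464), although those ranges overlapped. *Cr1l* (Crry), a membrane inhibitor of C3 cleavage, was 40.5 to 43.7 CPM, 40.0 to 42.7 CPM and 40.8 to 43.7 CPM in the same order, and no comparison called it.

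Counted together for Tu-primed against Spl-primed 4T1, 6 of the 7 tested members were called higher and 0 lower, where 4.66% of all 12555 tested genes were called higher and 2.97% lower. All 7 had Tu-primed libraries above every Spl-primed library and 0 had them all below, against 8.51% and 8.51% of all tested genes. Their median log2 fold change was 1.66, against −0.01 over all tested genes. Against parental 4T1, 6 of 7 were higher and 0 lower in the Tu-primed group (all tested genes, 31.2% higher and 28% lower), with a median of 2.11 against 0.02. In this comparison 6 were above without overlap and 0 below (28.6% and 26.9% of all tested genes). In Spl-primed against parental 4T1, 2 of 7 were higher (*C1s1* and *C4b*), 1 was lower (*C3*) and 4 had no call (all tested genes, 25.7% higher and 22.5% lower), with a median of 0.45 against 0.02. Here 2 were above and 1 below without overlap (21.3% and 18.3%). These comparisons share libraries, the 2 untested members have no value in them, and *Cfb*, which passed the filter on its Tu-primed libraries, could hardly have been called lower there. *C4b*, with 2 to 6 estimated reads per parental library, could likewise hardly have been called lower in either primed group against parental 4T1. The share of members called in Spl-primed against parental 4T1 was near that of all genes. The members were chosen with earlier results of these data known, so their shares describe these genes and do not test the pathway. Of 15 other tested complement genes, 3 were higher and 2 lower in Tu-primed than in Spl-primed 4T1, with a median log2 fold change of 0.02.

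**Figure D2:**
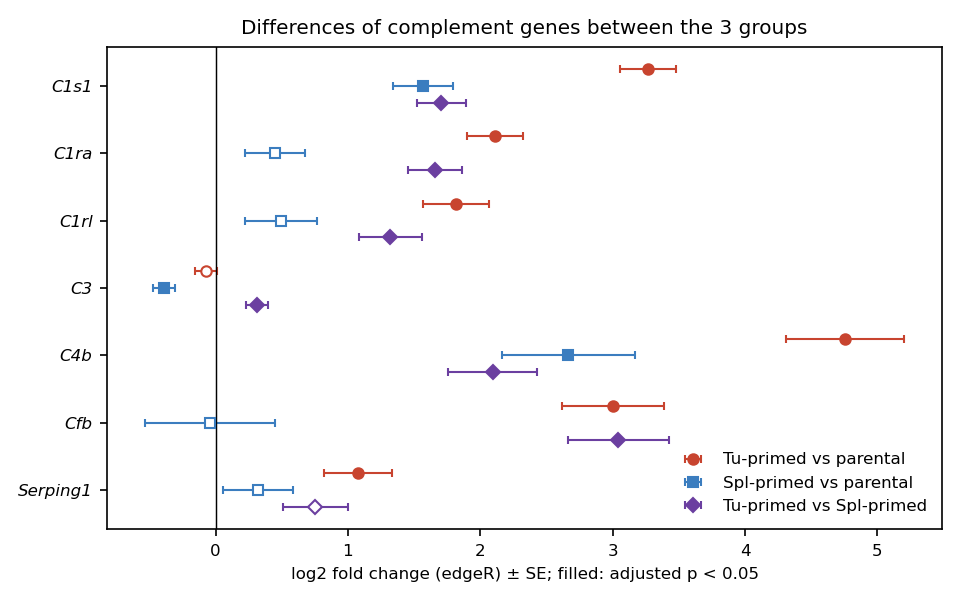
Log2 fold change ± SE (x axis, edgeR fit of 12 libraries) of the 7 tested members (y axis) in the 3 comparisons; filled marks have an adjusted p under 0.05. *C4b* against parental 4T1 has the largest value at 4.76, *C3* lies within 0.39 of 0 in all 3 comparisons, and *Cfb* has its 2 Tu-primed differences at 3.00 and 3.04 while the Spl-primed value is −0.04.

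Levels of different genes were compared as TPM, the deposited unit that allows for transcript length. In Tu-primed 4T1 the mean was 130 ± 6.59 TPM for *C3*, 5.86 ± 1.44 for *C1s1*, 3.23 ± 0.67 for *C1ra*, 1.82 ± 0.26 for *Serping1*, 1.67 ± 0.65 for *C4b*, 1.08 ± 0.34 for *Cfb* and 0.946 ± 0.106 for *C1rl* (SD, n = 4). The ranges of *C3*, *C1s1* and *C1ra* stood apart from their neighbours in this order, while *Serping1* and *C4b*, *C4b* and *Cfb*, and *Cfb* and *C1rl* overlapped. *C1ra* also overlapped with *C4b*, whose highest library had 2.353 TPM against 2.343 TPM in the lowest of *C1ra*. In parental 4T1 *C3* led with 99.98 ± 6.83 TPM, and *C1s1* (0.731 ± 0.574), *Serping1* (0.717 ± 0.267) and *C1ra* (0.555 ± 0.189) overlapped. Next by mean, *C1rl* (0.198 ± 0.069) overlapped with *C1s1* and with *Cfb* (0.0955 ± 0.0549), and *Cfb* overlapped with *C4b* (0.0259 ± 0.0113). In Spl-primed 4T1 the order was *C3* (105 ± 5.90 TPM), *C1s1* (1.74 ± 0.71), *Serping1* (1.01 ± 0.34), *C1ra* (0.986 ± 0.238), *C4b* (0.539 ± 0.311), *C1rl* (0.364 ± 0.1001) and *Cfb* (0.298 ± 0.210), and each gene after *C3* overlapped with the next. *Cd55* and *Cd59a* were under 0.04 TPM on average in every group. TPM was not compared between primed and parental groups, because the median log2 ratio of 10865 genes over 1 TPM was 0.45 for Tu-primed and 0.39 for Spl-primed against parental 4T1. Among the listed complement genes present in the files (9 members and 48 others), *C3* ranked 4 in parental 4T1 and 6 in both primed groups, and *C1s1* ranked 9 in Tu-primed 4T1.

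**Figure D3:**
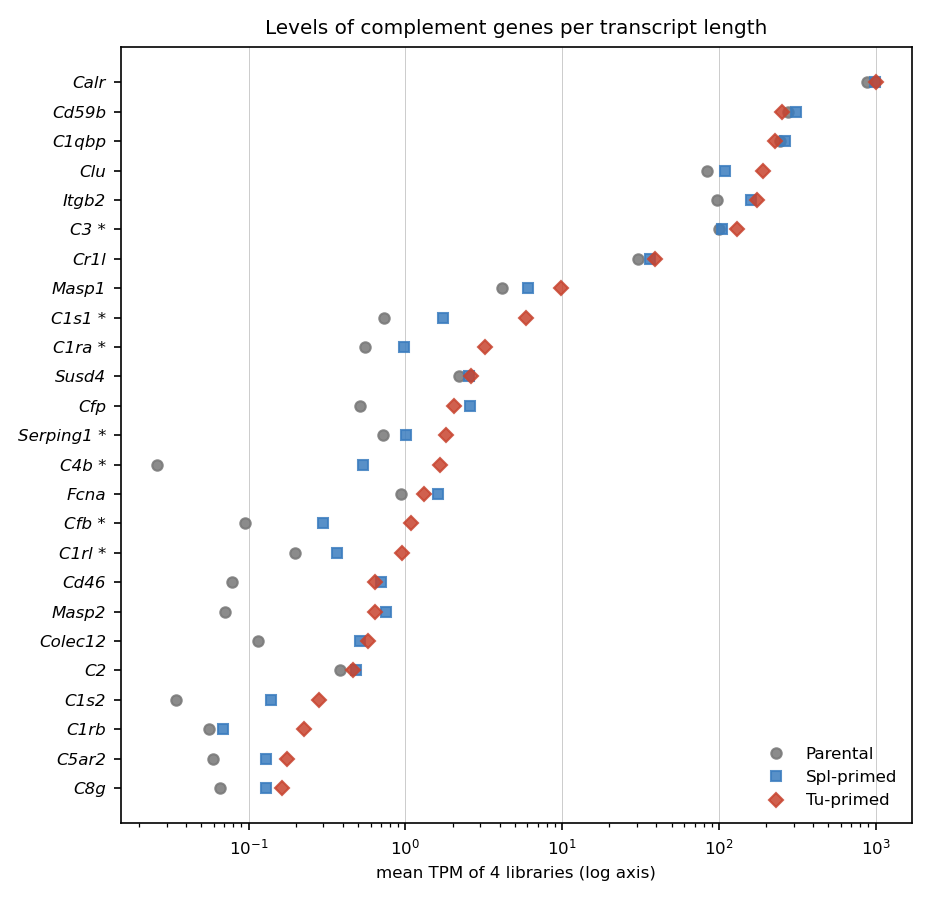
Mean TPM of 4 libraries per group (x axis, log scale) for the complement genes reported here that reach 0.1 TPM in some group (y axis); members carry an asterisk. *C3* is the one member above 10 TPM, and the other 6 members shown lie at 0.946 to 5.86 TPM in Tu-primed 4T1; positions of parental marks against primed marks also hold the shift of the TPM scale of 0.39 to 0.45 on the log2 scale.

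The wider pathway was read from 49 further complement genes, of which 48 were in the files, 17 were at 0 in every library and 15 were tested. In Tu-primed against Spl-primed 4T1, 3 of 15 were higher (*Clu* and *Masp1* among them) and 2 lower (*Cd59b* and *C1qbp*), with a median log2 fold change of 0.02. Of all tested genes, 4.66% were higher and 2.97% lower in this comparison. With any single Tu-primed library left out, 1 was lower. Against parental 4T1, 8 of 15 were higher and 3 lower after priming by tumor Gr1+ cells (all tested genes, 31.2% higher and 28% lower). After priming by spleen Gr1+ cells, 6 were higher and 3 lower (all tested genes, 25.7% higher and 22.5% lower). The medians were 0.75 and 0.13. Genes low in parental 4T1, such as *Cd46* with 4 to 19 estimated reads per parental library, could hardly have been called lower against it. Of the genes of C1q and of the terminal complex, *C1qa*, *C1qb*, *C1qc*, *C6*, *C7*, *C8a*, *C8b* and *C9* were at 0 reads in all 12 libraries, which allows up to 3 reads in each, while *C8g* had 0 to 5 reads and *Hc*, the gene of C5, 0 to 8 reads per library.

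*Clu*, the gene of clusterin, which restrains the terminal complex, was higher in Tu-primed 4T1 by 0.74 against the spleen group and by 0.75 against parental 4T1 (log2, edgeR adjusted p = 1.44e-05 and 1.02e-06), and its log2 difference between Spl-primed and parental 4T1 was 0.01. *Masp1*, a protease gene of the lectin pathway, differed in the same 2 comparisons by 0.63 and 0.77 (edgeR adjusted p = 0.00251 and 5.75e-05).

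A second pattern was shared by both primed groups. Calls against parental 4T1 were common, with 31.2% of all tested genes higher and 28% lower in Tu-primed 4T1. In Spl-primed 4T1 the shares were 25.7% and 22.5%. How many of all tested genes had the whole pattern was not counted. *Cd46*, a membrane cofactor gene, had 1.94 to 2.66 CPM in Tu-primed 4T1, 1.67 to 2.61 CPM in the spleen group and 0.160 to 0.783 CPM in parental 4T1. It was higher than in parental 4T1 by 2.54 and 2.40 on the log2 scale (edgeR adjusted p = 1.79e-05 and 6.1e-05), and the primed groups differed by 0.15 (edgeR adjusted p = 0.787). Both differences from parental 4T1 rest on 4 to 19 estimated reads per parental library. *Cfp* (properdin, which stabilizes the alternative pathway's convertase), *Colec12* and *Itgb2* were also called higher against parental 4T1 in both primed groups and had no call between them. *Calr*, whose product binds C1q, was lower against parental 4T1 in both primed groups and had no call between them. *C1qbp* and *Cd59b* were lower in both as well, but were also called lower in Tu-primed than in Spl-primed 4T1. No member had this pattern: *C1s1* and *C4b*, which rose in both primed groups, were also called higher in the Tu-primed than in the Spl-primed group.

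**Figure D4:**
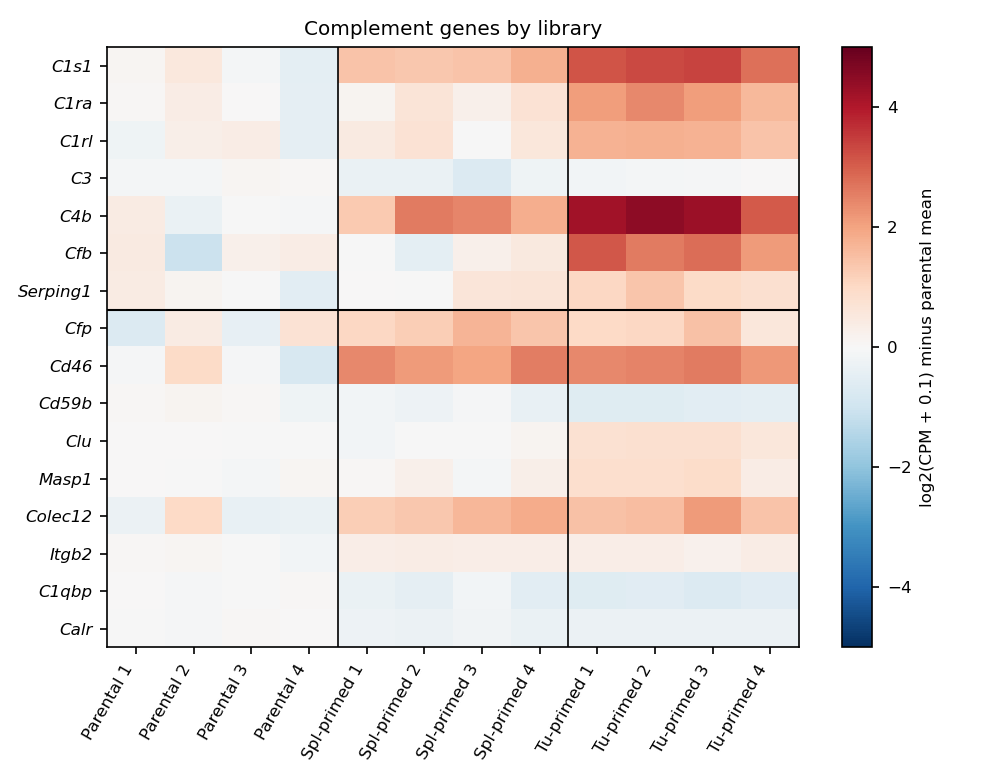
Log2(CPM + 0.1) minus the mean of the 4 parental libraries (color) for the 7 tested members (above the black line) and the reported complement genes called in some comparison with a mean of at least 1 CPM (below it), in each of the 12 libraries (x axis). *C1s1* and *C4b* step up from parental to Spl-primed to Tu-primed libraries, *C1ra*, *C1rl*, *Cfb*, *Clu* and *Masp1* are raised in the Tu-primed libraries, and *Cd46* and *Colec12* are raised in both primed groups.

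Across the 12 libraries, the log2 CPM of *C1s1*, *C1ra*, *C1rl* and *C4b* had pairwise Pearson correlations of 0.86 to 0.96, and *C3* had −0.21 to 0.26 with the other members. These values describe 12 libraries that fall into the 3 groups. The genes most like each member were *Lilr4b* and *Nt5e* for *C1s1* (r = 0.99 for both), *Vasn* and *Pdgfrl* for *C1ra*, *Dab2* and *Tnfrsf1b* for *C1rl*, *Dusp16* and *Myo1e* for *C3*, *Map2k1* and *Smim14* for *C4b*, *Ltf* (r = 0.96) and *P2ry6* (r = 0.95) for *Cfb*, and *Areg* and *Glrp1* for *Serping1*. Of 5 fibroblast markers, *Pdgfra* alone exceeded 1 CPM, and it was called higher in Tu-primed 4T1 against both other groups, with 76.0 to 97.6 CPM in Tu-primed 4T1, 42.3 to 66.7 CPM in the spleen group and 42.6 to 55.8 CPM in parental 4T1. *Col3a1* was at 0 in all 12 libraries and *Col1a1* had 0 to 4 reads in each. Whether cells other than 4T1 had a part in these levels was not tested.

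The fourth Tu-primed library was the lowest of its group for *C1s1*, *C1ra*, *C1rl*, *C4b*, *Cfb* and *Serping1* and the highest for *C3*. Without it, the log2 fold changes against Spl-primed 4T1 were 1.82 for *C1s1*, 1.79 for *C1ra*, 1.398 for *C1rl*, 2.33 for *C4b* and 3.20 for *Cfb*, all still called, and 5 members were higher in place of 6, as *C3* had an edgeR adjusted p of 0.0631.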

How the data were processed

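RNA was sequenced in 12 libraries after TruSeq Stranded library preparation. The submitters' processing notes name FastQC, Trimmomatic 0.39, Salmon 1.4.0 and GRCm38 (mm10), and the annotation release is not given in the sources used here. For each library the authors deposited estimated counts and TPM values per Ensembl transcript, with effective lengths. A further table with normalized values per gene was not used here.

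Estimated counts were summed per gene with GENCODE M21 (116021 of 117081 transcripts matched) and rounded. Library totals were 24467549 to 31517536 (median 27169383), and the spread of 4 libraries gives the precision. After edgeR's filterByExpr, 12555 genes were tested by the quasi-likelihood test in 1 fit of 12 libraries with TMM factors (0.88 to 1.05), with Benjamini-Hochberg adjustment (threshold 0.05). Each standard error is the log2 fold change over the root of F, intervals use its t quantile, and log2 CPM used a prior count of 2. The scripts were tested on simulated data. R 4.3.3, edgeR 4.0.16, limma 3.58.1, DESeq2 1.42.0, Python 3.11.15, pandas 2.3.3, numpy 2.4.6 and matplotlib 3.10.9 were used. Members and gene lists were chosen with earlier results of these data known. Genes outside the members were named where called in some comparison with a mean of at least 1 CPM, with *Cd46*, *Cr1l*, *C2* and *Clu* whatever their value, together with the 2 genes most correlated with each member; *Ube2l6*, *C1rb*, *C1s2*, *Gm20547*, *C8g*, *Hc*, the genes at 0 and the markers were named after their values were seen. No 2 libraries of a group were alike enough to be 1 library (chi-square over degrees of freedom at least 3.46). Promoter windows came from RefSeq on GRCm38.p6. Protein sequences were not analysed here, and 1 of the other complement genes is not reported here, although the counts include it. Alternatives were DESeq2, limma-voom, other scalings, filters, thresholds, libraries, transcript sets, length offsets, summed copies, a replicate block and leaving out each library.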

Additional observations from a re-analysis of the deposited data

Results flagged for a closer look

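The level of *C1rl* in the fourth Tu-primed library, 1.60 CPM, stood apart from the other 3 libraries of its group, which lay at 1.99 to 2.06 CPM. Its gap to the nearest was 0.846 of the group's whole range, above Dixon's 95% critical value for 4 samples. In all, 21 groups of a member were examined, and chance alone marks about 1 in 20. Without this library *C1rl* was still called higher than in Spl-primed 4T1 (log2 fold change 1.398, edgeR adjusted p = 0.00376) and than in parental 4T1 (1.89, edgeR adjusted p = 8.65e-05).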

How the results depend on the processing

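Of the log2 fold changes of single members under the alternatives, 456 kept their direction and call, 9 lost a call, 1 gained one and 7 changed sign. All 7 sign changes were of *Cfb* in Spl-primed against parental 4T1, which had no call: 0.11 by limma-voom, 0.94 with length offsets, and 0.17, 0.02, 0.08, 0.02 and 0.17 when single libraries were left out. The whole range of this difference with single libraries left out was −0.37 to 0.17. With length offsets, calls were lost for *C3* (0.25, adjusted p = 0.0864) and *Cfb* (2.02, adjusted p = 0.052) between the primed groups and for *C1s1* (1.07, adjusted p = 0.0849) in Spl-primed against parental 4T1, where 1 member was then higher. With at least 10 counts in every library, 3, 3 and 1 members were higher in the Tu-primed against Spl-primed, Tu-primed against parental and Spl-primed against parental comparisons, because *C1rl*, *C4b* and *Cfb* were no longer tested. With copies summed, 1, 1 and 2 members were lower in the same order, since *Cd59a* then held the reads of *Cd59b*. Requiring an absolute log2 fold change over 1 left 0 members lower in the Spl-primed against parental comparison, and of the other complement genes 0 higher and 0 lower between the primed groups, 5 higher and 0 lower for Tu-primed against parental and 0 lower for Spl-primed against parental. The 2 other complement genes lower between the primed groups became 0 at an adjusted p under 0.01 and 1 with upper-quartile scaling, no filter, 8 libraries, length offsets, protein-coding transcripts, summed copies or the replicate block, and 1 to 2 when single libraries were left out. Replicate numbers are shared by the 3 groups, but deviations of same-numbered libraries correlated at −0.164 to 0.148, so the numbers were not taken as pairs. With the replicate block, 6, 6 and 2 members were higher, and no other count moved beyond 1.5 times. The cause of these changes was not tested unless stated. Depth limits *Cd55*, *Cd59a*, *C2* and the parental level of *C4b*, which rest on a few reads.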
